A study of Mus musculus with 16 samples.

Results

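The Hedgehog pathway genes described here are Ptch1, Hhip, Smo, Sufu, Gli1, Gli2 and Gli3. They were taken as every non-control probe of a mouse microarray whose gene name, or RefSeq accession matched to a symbol, was one of these names. This gave 10 probes for 7 genes, out of 55681 probes and 20972 named genes. Polyadenylated RNA of E14 mouse embryonic stem (ES) cells, grown in serum with LIF, was hybridised in 1 colour (Cy3) to 16 arrays. All cells had been transfected with a plasmid by Lipofectamine, sorted for eGFP at 24 h and kept until 48 h. EGFP cells received eGFP alone. Ptn_VP64 cells received a TALE (a designed DNA-binding protein) named for Ptn and joined to VP64, a viral transcription activator. Ptn_DEL cells received the same TALE named with DEL, an acidic peptide, and Ptn_Delta cells received the one named Delta, whose content the labels do not give. Each group had 4 arrays, which the labels describe as 2 biological and 2 technical replicates without saying which is which.

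Hedgehog signalling starts at PTCH1, a membrane receptor that keeps the transducer SMO inactive until a Hedgehog ligand binds. HHIP binds the same ligands and withholds them from the receptor. Inside the cell SUFU holds the GLI transcription factors back, and the signal passes largely through the primary cilium. GLI2 is the main activator, GLI3 is largely turned into a repressor when no ligand is present, and GLI1 is an activator whose own gene is a target. Ptch1, Hhip and Gli1 are textbook targets of the pathway, so their RNA is often used as a readout of it.

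The promoters of Ptch1 and Hhip, the receptor and the ligand-binding inhibitor whose genes are themselves targets, show the kind of sequence that lies before these genes. Each is the RefSeq sequence of the 250 bases before the gene's start in GRCm38.p6, 5′ to 3′ on the gene's strand, and capitals mark GC boxes (GGGCGG, or CCGCCC on the other strand). Ptch1 is chr13:63565736-63565985 and Hhip is chr8:80058009-80058258, both on the minus strand.
Ptch1: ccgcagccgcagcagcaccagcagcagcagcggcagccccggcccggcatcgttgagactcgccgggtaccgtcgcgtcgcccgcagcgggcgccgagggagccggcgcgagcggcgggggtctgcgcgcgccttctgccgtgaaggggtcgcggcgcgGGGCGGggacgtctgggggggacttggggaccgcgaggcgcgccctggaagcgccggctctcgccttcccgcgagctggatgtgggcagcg
Hhip: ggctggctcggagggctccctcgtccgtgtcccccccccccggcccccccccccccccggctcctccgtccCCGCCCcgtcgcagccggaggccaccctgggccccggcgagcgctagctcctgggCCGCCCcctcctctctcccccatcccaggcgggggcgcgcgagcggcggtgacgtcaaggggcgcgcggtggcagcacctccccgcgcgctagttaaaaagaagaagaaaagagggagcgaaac
The Ptch1 window had a GC content of 78.4% and held 1 GC box, and the Hhip window had 76% and held 2. GC boxes lay in the windows of 5 of the 6 members with a promoter entry, all but Smo, and in 32.7% of 32851 promoters of the same length. The GLI motif GACCACCCA, searched on both strands, lay in none of the 6 member windows and in 0.225% of all promoters. Its core CCACCCA, which that motif contains, also lay in none of the 6 and in 8.11% of all promoters.

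Levels are given as the log2 of a spot's processed signal minus the log2 of that array's 75th percentile, so that 0 is the 75th percentile and 1 unit is a 2-fold difference in brightness. A spot is called well above background as the scanner software marked it. The 75th percentile ranged from 209.3 to 1253 brightness units over the arrays, and 27.15% to 43.78% of spots were well above background. On 7 arrays (EGFP replicates 1 and 3, Ptn_VP64 replicate 3, Ptn_DEL replicates 1 and 4, Ptn_Delta replicates 1 and 4) the dimmest 38% to 49.2% of spots carry 1 identical value, called the floor below, and values there have no order. Patches of the slides were locally bright or dim, and 0.641% to 35.6% of spots lay in a patch shifted by more than 1 unit. Each construct had its own column of the slide, so that position and construct cannot be told apart. Ptn was higher on all 4 Ptn_VP64 arrays (2.61 to 3.67) than on the 4 EGFP arrays (-1.61 to -0.68), although the fitted difference of 4.87 ± 1.04 (SE) had an adjusted p of 0.677 in the main limma test, which used 1 Ptn_VP64 array. With another Ptn probe, patch-corrected levels and every array taken as a sample, limma gave 4.37 ± 0.84 (adjusted p = 0.0298).

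Differences were tested with limma over all 4 groups, after the 4 arrays of each group had been averaged in pairs, once for every way of pairing them (3 ways), and the largest p was kept. Adjusted p-values are over all 12723 to 12777 genes tested. The main test called 0 genes in each of the 6 comparisons. At an unadjusted p under 0.05 it held 495 genes for Ptn_VP64 against EGFP, 342 for Ptn_DEL against EGFP and 509 for Ptn_Delta against EGFP. It held 237 for Ptn_VP64 against Ptn_DEL, 372 for Ptn_VP64 against Ptn_Delta and 82 for Ptn_DEL against Ptn_Delta. A second test used patch-corrected levels, in which the local shift around a spot was subtracted and spots shifted by more than 1 unit were left out. It took every array as a sample, so its p-values count technical repeats as replicates and are too small by an unknown amount. The labels say neither which arrays repeat a sample nor whether the biological replicates were separate cultures. The main test thus measures the spread between averaged pairs of these arrays, and the second test the spread between the arrays.

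The markers of ES cells were well above background on at least 3 arrays of every group for 12 of 12 genes, among them Pou5f1, Dppa5a and Utf1. The summed linear level of the list was 521 to 1051 on EGFP arrays and 313 to 628 on Ptn_VP64 arrays. Trophoblast markers such as Krt8, Krt18 and Tfap2c differed in their range, from 5.38 to 22.7 on EGFP arrays (2 of 10 genes well above background on at least 3 arrays) to 29.5 to 176 on Ptn_VP64 arrays (7 of 10). Ptn_DEL arrays had 15.3 to 48.8 (7 of 10) and Ptn_Delta arrays 14.7 to 60 (6 of 10), and Elf5 was well above background on no array of any group. Fibroblast markers such as Vim, Tagln and Acta2 had 21.1 to 48 on EGFP arrays (4 of 10) and 39.4 to 150 on Ptn_VP64 arrays (7 of 10), with 13.6 to 64.5 in Ptn_DEL and 25.2 to 58.8 in Ptn_Delta (5 of 10 each). Postn was on no array of any group. The ranges of EGFP and Ptn_VP64 overlapped for the ES cell and fibroblast markers above. In the same way they overlapped for neural markers such as Neurod1, Pax6 and Zic1 (5.93 to 9.13 with 4 of 9 genes, against 5.63 to 8.37 with 6 of 9), with Pax3 on no array of any group. They also overlapped for endoderm markers such as Lama1, Col4a1 and Gata6 (4.69 to 18.7 with 3 of 10, against 9.35 to 13.3 with 6 of 10) and for mesoderm markers such as Kdr, Eomes and T (1.42 to 5.19 with 1 of 10, against 1.32 to 3.42 with 2 of 10). Afp of the endoderm list and Tbx6 of the mesoderm list were on no array of any group. Of the 10 mesoderm genes, 5 were on no EGFP array and 6 on no Ptn_VP64 array. Whether cells of these types were present, and what part they had in the values below, was not tested. In bulk RNA a smaller share of expressing cells and less RNA per cell cannot be told apart.

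Of the 7 Hedgehog genes, 6 had a probe well above background on at least 4 arrays and were tested, and Sufu did not. The main test called 0 of the 6 in every comparison, against 0% of all genes tested. At an unadjusted p under 0.05 the main test held Ptch1, which was lower in Ptn_VP64 than in EGFP (0.77% of all genes tested were lower at that threshold). It also held Smo, higher in Ptn_Delta than in EGFP (3.77% of all genes were higher), and Gli1, lower in Ptn_VP64 than in Ptn_Delta (1.73% were lower). The second test had 5 of the 7 genes, without Hhip and Sufu. It called Ptch1 lower in Ptn_VP64 than in EGFP, where 0.832% of all genes were called lower, and lower than in Ptn_Delta, where 0.233% were. It called 0 of 5 in the other 4 comparisons, in which Ptn_VP64 against Ptn_DEL called 0.277% of all genes lower and 0.564% higher, Ptn_DEL against EGFP called 0.0716%, Ptn_Delta against EGFP 0.0268% and Ptn_DEL against Ptn_Delta 0%.

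**Figure D1:**
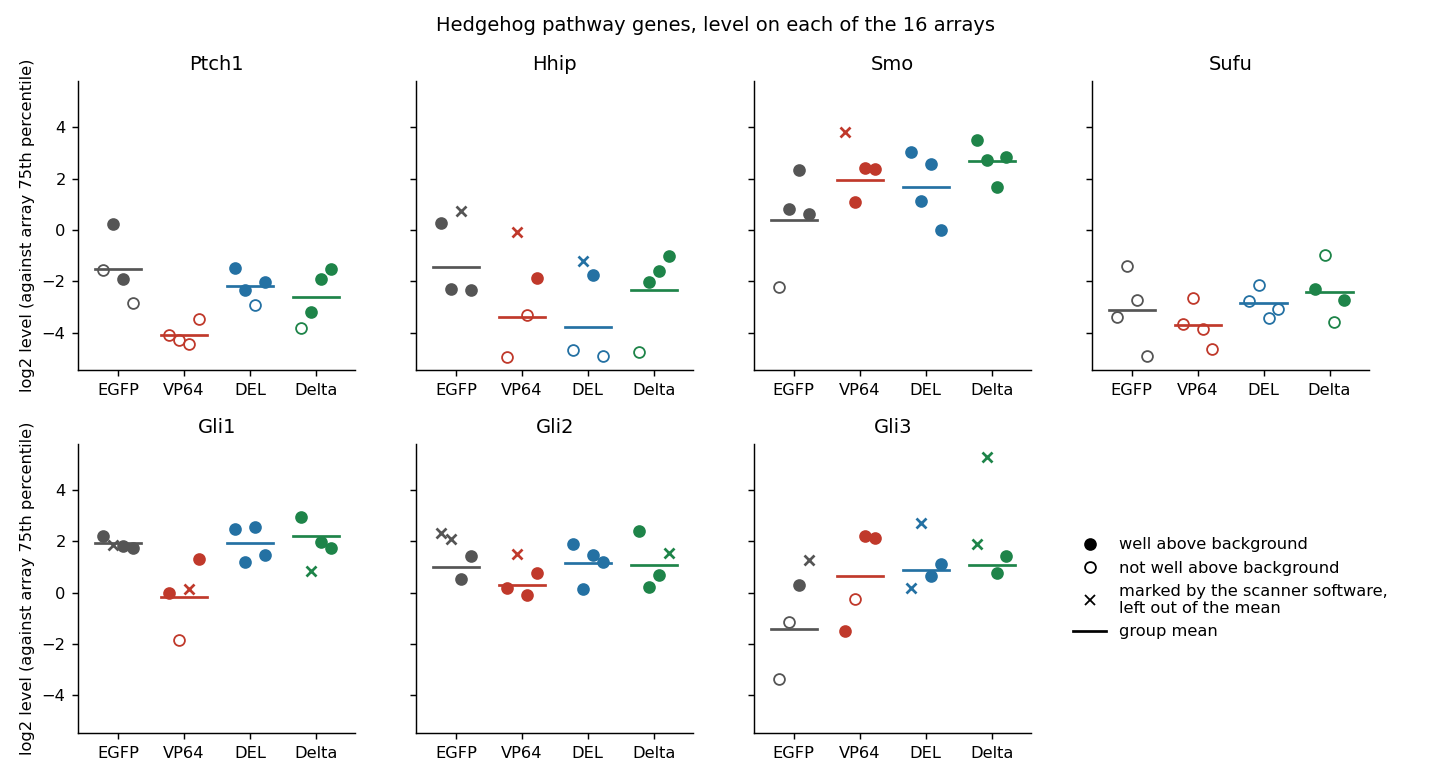
The log2 level of each of the 7 Hedgehog genes on each array, relative to the array's 75th percentile, with 4 arrays per construct and a line at the mean of the arrays used. Filled points were well above background, open points were not, and crosses were marked by the scanner software and left out of the mean; the Ptch1 points of Ptn_VP64 are all open and lie at or below -3.47.

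Ptch1, the receptor, was dim, with its probe well above background on 8 of 16 arrays. In EGFP cells its log2 level was -1.57, 0.24, -1.89 and -2.83 in replicates 1 to 4, of which replicates 2 and 3 were well above background. In Ptn_VP64 cells it was -4.10, -4.28, -4.44 and -3.47, none well above background and the third at the floor. All 4 Ptn_VP64 arrays lay below all 4 EGFP arrays. In Ptn_DEL cells the level was -1.5, -2.33, -2.93 and -2.04, with replicates 1, 2 and 4 well above background. In Ptn_Delta cells it was -3.80, -3.21, -1.89 and -1.51, with replicates 2, 3 and 4 well above background. Every Ptn_VP64 array was thus also below every Ptn_DEL array, while Ptn_VP64 and Ptn_Delta overlapped through replicate 1 of Ptn_Delta. From the highest to the lowest, the means were -1.51 ± 1.29 in EGFP, -2.20 ± 0.60 in Ptn_DEL, -2.60 ± 1.08 in Ptn_Delta and -4.07 ± 0.42 in Ptn_VP64 (SD, n = 4 each). EGFP, Ptn_DEL and Ptn_Delta overlapped one another.

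Several of these Ptch1 spots lay in patches. The local shift was 1.63 around EGFP replicate 2, the brightest Ptch1 value and the array with the lowest 75th percentile. It was -2.93 around Ptn_VP64 replicate 2 and -3.39 around Ptn_Delta replicate 1, and these 3 spots were left out of the patch-corrected levels. The patch-corrected level of Ptch1 was -2.29, -1.85 and -2.57 in EGFP replicates 1, 3 and 4. It was -3.67, -4.40 and -3.51 in Ptn_VP64 replicates 1, 3 and 4. Every Ptn_VP64 array kept was below every array of the other 3 groups. It was -2.20, -2.32, -2.97 and -2.06 in the 4 Ptn_DEL replicates and -2.33, -2.06 and -1.76 in Ptn_Delta replicates 2, 3 and 4. The correction brought the means of EGFP (-2.24 ± 0.36, n = 3), Ptn_DEL (-2.39 ± 0.40, n = 4) and Ptn_Delta (-2.05 ± 0.29, n = 3) close together, and Ptn_VP64 remained lower at -3.86 ± 0.48 (SD, n = 3).

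The fitted Ptch1 difference of Ptn_VP64 from EGFP in the main limma test was -2.56 ± 0.87 (SE; adjusted p = 1). It was -1.87 ± 0.87 from Ptn_DEL and -1.47 ± 0.87 from Ptn_Delta, both with an adjusted p of 1. None of the 3 differences passed the adjusted threshold of the main test. Because no Ptn_VP64 spot was well above background, each size was also computed as a bound on these uncorrected levels, against the higher of each Ptn_VP64 spot and the dimmest signal well above background on its array. The value for EGFP was 3.67-fold lower in Ptn_VP64, and it is no minimum, since 2 of the 4 EGFP spots were themselves not well above background and the fitted difference on patch-corrected levels was smaller, at 3.08-fold. Without EGFP replicate 2 it was 2.45, and it ranged from 2.45 to 4.98 as each array was left out. The value was 2.28-fold lower than in Ptn_DEL (1.86 to 3.06 as each array was left out) and 1.72-fold lower than in Ptn_Delta (1.34 to 2.32), with 3 of 4 spots well above background in each.

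In the second test the Ptch1 difference was -1.62 ± 0.33 from EGFP (limma, adjusted p = 0.0248), -1.81 ± 0.33 from Ptn_Delta (adjusted p = 0.0383) and -1.47 ± 0.31 from Ptn_DEL (adjusted p = 0.065). The main test, with arrays averaged, gave on the same patch-corrected levels -1.45 ± 0.31 from EGFP (adjusted p = 0.328), -2.02 ± 0.37 from Ptn_Delta (adjusted p = 0.761) and -1.61 ± 0.37 from Ptn_DEL (adjusted p = 0.835). The sizes were thus similar, and the call depended on counting each array as a sample. Of the EGFP arrays kept, replicate 3 was well above background, and replicates 1 and 4 were not. None of the Ptn_VP64 arrays kept, replicates 1, 3 and 4, was well above background, and replicate 3 was at the floor. The fitted difference from EGFP is therefore no measure of fold. The call against EGFP was lost without EGFP replicate 1 (adjusted p = 0.0577), EGFP replicate 3 (0.0713), Ptn_VP64 replicate 1 (0.0664) or Ptn_VP64 replicate 3 (0.0982). Each of these left 2 arrays of that group. The call against Ptn_Delta was lost in 10 of the 16 fits that left out 1 array, with adjusted p up to 0.167 without Ptn_Delta replicate 4.

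On uncorrected levels Ptch1 was lower in Ptn_VP64 on both slides. On slide 1, which held replicates 1 and 2, the difference was -3.52 from EGFP, -2.27 from Ptn_DEL and -0.68 from Ptn_Delta. On slide 2, which held replicates 3 and 4, it was -1.60, -1.47 and -2.26. Slide 1 holds the spots that the patch correction left out, those of EGFP replicate 2, Ptn_VP64 replicate 2 and Ptn_Delta replicate 1. The slides carry too few arrays for a test of their own. The differences of Ptn_DEL and Ptn_Delta from EGFP were within the spread between arrays. In the main test Ptch1 was -0.69 ± 0.87 in Ptn_DEL and -1.09 ± 0.87 in Ptn_Delta relative to EGFP, and on patch-corrected levels -0.16 ± 0.31 and 0.19 ± 0.33. The sign for Ptn_Delta differed between the 2 sets of levels.

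**Figure D2:**
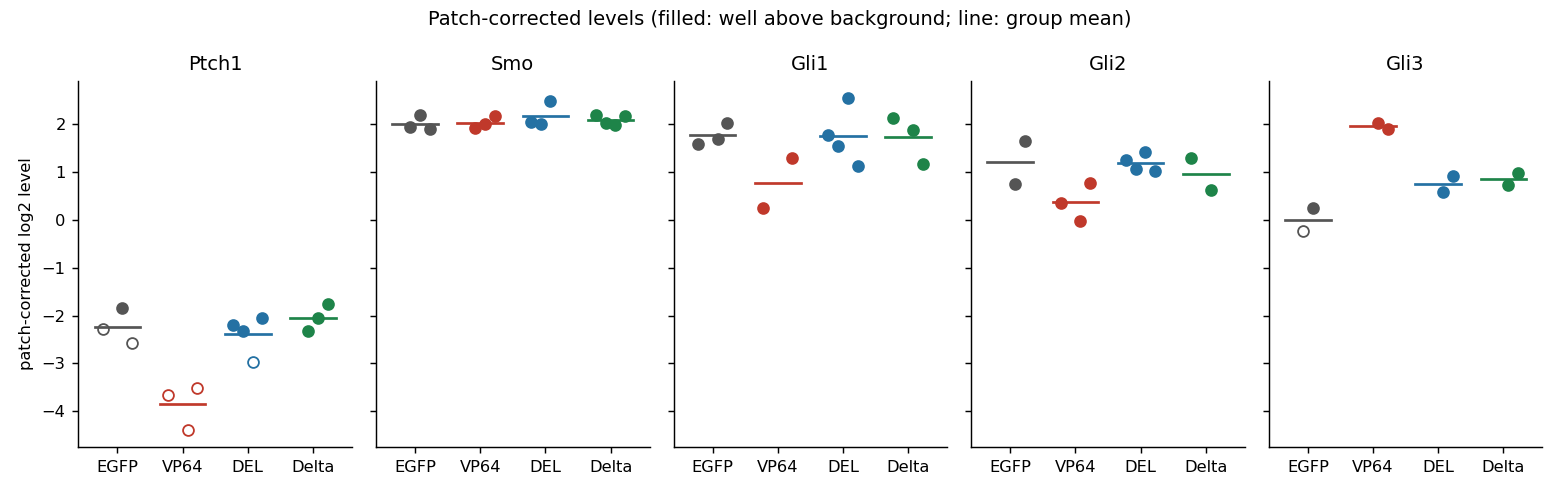
The patch-corrected log2 level of the 5 Hedgehog genes of the second test on each array kept, with a line at the group mean, filled points well above background and open points not. The 3 Ptn_VP64 points of Ptch1 lie below all others of that gene, and those of Smo lie among the rest. The 2 Ptn_VP64 points of Gli3, at 2.03 and 1.90, lie above the 2 of each other group. For Gli3 the share of all genes with such a separation was not computed.

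Hhip, the ligand-binding inhibitor, was measured by 1 probe well above background on 11 arrays, while its other probe was well above background on none. The probe used read 0.26, -2.28, 0.74 and -2.32 in EGFP replicates 1 to 4, the third of them marked and left out. It read -4.95, -0.06 (marked), -3.30 and -1.87 in Ptn_VP64 and -4.69, -1.20 (marked), -1.75 and -4.91 in Ptn_DEL. It read -4.76, -2.02, -1.60 and -1.01 in Ptn_Delta. The groups overlapped in every comparison, and Ptn_DEL replicates 1 and 4 and Ptn_Delta replicate 1 were at the floor. Means over the spots used were -1.45 ± 1.48 in EGFP (SD, n = 3), -2.35 ± 1.66 in Ptn_Delta (n = 4), -3.37 ± 1.54 in Ptn_VP64 (n = 3) and -3.78 ± 1.76 in Ptn_DEL (n = 3). The fitted Hhip differences from EGFP were -1.98 ± 1.12 in Ptn_VP64, -1.62 ± 0.97 in Ptn_DEL and -0.68 ± 0.95 in Ptn_Delta (SE), all with an adjusted p of 1 in the main limma test. They rest in part on spots at the floor, where a fitted difference is no measure of fold. On slide 2 alone they were -0.26, -1.0 and 1.02, so that Ptn_Delta changed sign. Hhip could not be tested on patch-corrected levels, since too few arrays were left.

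Smo, the transducer, was among the brighter members, and its 2 probes were well above background on 15 and 16 arrays. On the probe with the higher mean, EGFP replicates 1 to 4 read -2.22, 0.81, 2.34 and 0.62. Ptn_VP64 replicates read 3.83 (marked, left out), 1.1, 2.43 and 2.36, and Ptn_DEL replicates 3.05, 1.12, 2.58 and 0.01. Ptn_Delta replicates read 3.50, 2.72, 1.69 and 2.84. EGFP replicate 1 was the lowest value of all, and the groups overlapped. Means ran from 0.39 ± 1.90 in EGFP to 1.69 ± 1.39 in Ptn_DEL, 1.97 ± 0.75 in Ptn_VP64 and 2.69 ± 0.75 in Ptn_Delta (SD, n = 4 except 3 in Ptn_VP64). The Smo difference of Ptn_Delta from EGFP in the main limma test was 2.30 ± 0.89 (adjusted p = 0.98). It was 1.36 ± 0.89 for Ptn_VP64 and 1.30 ± 0.89 for Ptn_DEL, both with an adjusted p of 1.

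The Smo differences were far smaller on patch-corrected levels. EGFP replicate 1, Ptn_VP64 replicate 1 and Ptn_DEL replicate 4 were left out there, and the other 13 arrays lay between 1.90 and 2.48. The mean was 2.02 ± 0.16 in EGFP, 2.04 ± 0.13 in Ptn_VP64, 2.18 ± 0.27 in Ptn_DEL (SD, n = 3 each) and 2.09 ± 0.11 in Ptn_Delta (n = 4). In the second test the differences from EGFP were 0.02 ± 0.18 for Ptn_VP64, 0.21 ± 0.19 for Ptn_DEL and 0.10 ± 0.17 for Ptn_Delta (limma, adjusted p of 0.972, 0.844 and 0.917). The other Smo probe had differences from EGFP of the opposite sign on main levels. They were -0.46 for Ptn_VP64, -0.55 for Ptn_DEL and -0.61 for Ptn_Delta, each ± 0.72 (SE). On that probe the brightest array was EGFP replicate 2, at 2.42, and the dimmest Ptn_Delta replicate 4, at -2.11.

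Sufu, the cytoplasmic inhibitor, was near the limit of the arrays. Its brighter probe was well above background on 2 arrays, replicates 1 and 4 of Ptn_Delta, and its other probe on none. The brighter probe read -3.37, -1.41, -2.71 and -4.90 in EGFP, and -3.67, -2.66, -3.86 and -4.62 in Ptn_VP64. It read -2.77, -2.14, -3.44 and -3.08 in Ptn_DEL, and -2.30, -0.99, -3.58 and -2.73 in Ptn_Delta. The 4 groups overlapped, and a change in Sufu was not detectable at this brightness.

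**Figure D3:**
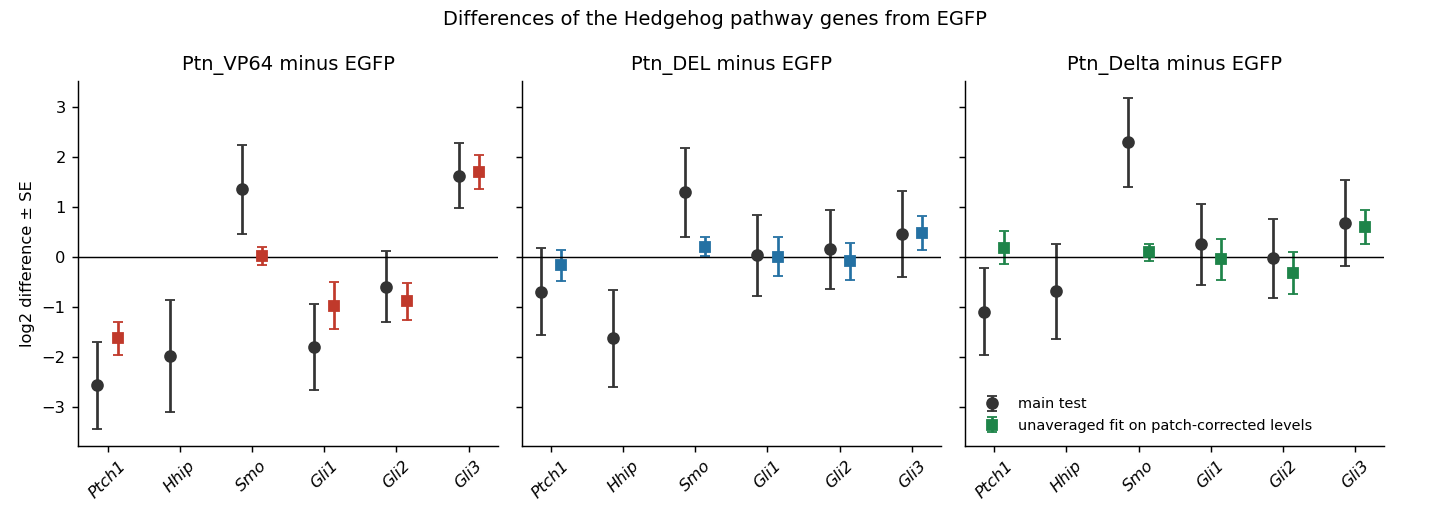
Fitted log2 differences from EGFP, with SE bars, for the 6 Hedgehog genes tested, in the main test (circles) and in the unaveraged fit on patch-corrected levels (squares; Hhip has none). Ptch1 in Ptn_VP64 lies below 0 in both, at -2.56 and -1.62, while the Smo differences of the main test, up to 2.30, are at most 0.21 after the correction.

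Gli1, the activator whose gene is itself a target, was well above background on 15 of 16 arrays. It read 2.20, 1.87 (marked), 1.82 and 1.74 in EGFP replicates 1 to 4. It read 0.00, -1.86, 0.16 (marked) and 1.31 in Ptn_VP64 replicates, the second not well above background and with a local shift of -2.31. All 4 Ptn_VP64 spots, the marked one included, were below all 4 EGFP spots. It read 2.49, 1.21, 2.57 and 1.47 in Ptn_DEL and 2.95, 0.83 (marked), 1.96 and 1.74 in Ptn_Delta. Ptn_VP64 replicate 4 lay within the range of Ptn_DEL, and the Ptn_VP64 spots used lay below the Ptn_Delta spots used. Means over the spots used were 2.22 ± 0.65 in Ptn_Delta (SD, n = 3), 1.93 ± 0.70 in Ptn_DEL (n = 4), 1.92 ± 0.25 in EGFP (n = 3) and -0.19 ± 1.59 in Ptn_VP64 (n = 3). The first 3 of these overlapped one another.

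The Gli1 difference of Ptn_VP64 in the main limma test was -2.22 ± 0.86 from Ptn_Delta, -1.80 ± 0.86 from EGFP and -1.75 ± 0.86 from Ptn_DEL, all with an adjusted p of 1. On slide 1 alone, which holds the dim replicate 2, it was -3.13 from EGFP, and on slide 2 alone it was -0.47. On patch-corrected levels 2 Ptn_VP64 arrays were kept, replicates 1 and 4, at 0.25 and 1.30. EGFP replicates 1, 3 and 4 were at 1.59, 1.69 and 2.04, above both. Ptn_DEL spanned 1.14 to 2.56 and Ptn_Delta 1.18 to 2.14, and each overlapped the higher Ptn_VP64 array. The second test gave -0.97 ± 0.47 from EGFP (limma, adjusted p = 0.343), -0.98 ± 0.44 from Ptn_DEL (adjusted p = 0.487) and -0.93 ± 0.47 from Ptn_Delta (adjusted p = 0.473). Gli1 thus passed the threshold in neither test. Relative to EGFP it was 0.04 ± 0.81 in Ptn_DEL and 0.26 ± 0.81 in Ptn_Delta in the main test.

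Gli2, the main activator, was well above background on all 16 arrays. It read 2.31 (marked), 2.09 (marked), 0.53 and 1.44 in EGFP replicates 1 to 4, and 0.18, 1.5 (marked), -0.09 and 0.75 in Ptn_VP64. It read 1.91, 0.14, 1.45 and 1.19 in Ptn_DEL, and 2.39, 0.21, 0.69 and 1.56 (marked) in Ptn_Delta. The groups overlapped in every comparison. In the main limma test Gli2 in Ptn_VP64 differed by -0.59 ± 0.71 from EGFP, -0.77 ± 0.71 from Ptn_DEL and -0.48 ± 0.71 from Ptn_Delta, all with an adjusted p of 1. On patch-corrected levels the means were 0.37 ± 0.40 in Ptn_VP64 (SD, n = 3), 0.96 ± 0.48 in Ptn_Delta (n = 2), 1.19 ± 0.19 in Ptn_DEL (n = 4) and 1.20 ± 0.65 in EGFP (n = 2). The 3 Ptn_VP64 arrays kept were below the 4 Ptn_DEL arrays and overlapped those of Ptn_Delta and EGFP. The differences in the second test were -0.88 ± 0.37 from EGFP (limma, adjusted p = 0.29), -0.80 ± 0.31 from Ptn_DEL (adjusted p = 0.423) and -0.57 ± 0.37 from Ptn_Delta (adjusted p = 0.582).

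Gli3, whose protein acts mostly as the repressor, was well above background on 13 arrays and had the most marked spots of the 7 genes, on 5 of 16 arrays. It read -3.37, -1.14, 0.28 and 1.29 (marked) in EGFP replicates 1 to 4, the first at the floor with a local shift of -3.74. It read -1.49, -0.24, 2.20 and 2.12 in Ptn_VP64. It read 0.20 (marked), 2.72 (marked), 0.65 and 1.1 in Ptn_DEL, and 1.90 (marked), 5.29 (marked), 0.75 and 1.41 in Ptn_Delta, with a local shift of 4.02 at the value of 5.29. The groups overlapped, and the 2 Ptn_VP64 arrays of slide 2 were brighter than those of slide 1. In the main limma test the Gli3 difference of Ptn_VP64 from EGFP was 1.63 ± 0.65 (adjusted p = 1). The test left out EGFP replicate 4 and replicates 1 and 2 of Ptn_DEL and Ptn_Delta, where spots were marked.

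The patch-corrected Gli3 levels had 2 arrays a group, all from slide 2 except in EGFP. They were 2.03 and 1.90 in Ptn_VP64, 0.58 and 0.93 in Ptn_DEL, 0.73 and 0.98 in Ptn_Delta, and -0.24 and 0.26 in EGFP. Both Ptn_VP64 arrays were above those of the other groups. The share of all genes with such a separation at 2 arrays a group was not computed. The EGFP value of -0.24 was replicate 2, on slide 1 and not well above background. The second test gave 1.71 ± 0.34 from EGFP (limma, adjusted p = 0.0658), 1.21 ± 0.28 from Ptn_DEL (adjusted p = 0.198) and 1.11 ± 0.28 from Ptn_Delta (adjusted p = 0.22). Without EGFP replicate 3 the first became 2.21 (adjusted p = 0.0347), the one fit in which Gli3 passed. In the main test the Gli3 differences from Ptn_DEL and Ptn_Delta had the other sign, at -0.23 ± 0.90 and -0.43 ± 0.90.

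Groups that did not overlap were compared over the genes with at least 3 arrays in both. On main levels 2 of 5 members, Ptch1 and Gli1, had all Ptn_VP64 arrays below all EGFP arrays, as did 1.92% of all genes. Ptch1 alone of 5 was below Ptn_DEL throughout (4.72% of all genes) and Gli1 alone of 5 below Ptn_Delta (5.18%). The latter holds for the spots used only, since the marked Gli1 spot of Ptn_Delta replicate 2 read 0.83 and Ptn_VP64 replicate 4 read 1.31. The shares pool genes with 3 and with 4 arrays a group. On patch-corrected levels Ptch1 was below EGFP throughout (1 of 2 members, 5.79% of all genes). Ptch1 and Gli2 were below Ptn_DEL (2 of 3, 6.95%), and Ptch1 was below Ptn_Delta (1 of 2, 8.06%). The 3 comparisons share the Ptn_VP64 arrays.

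**Figure D4:**
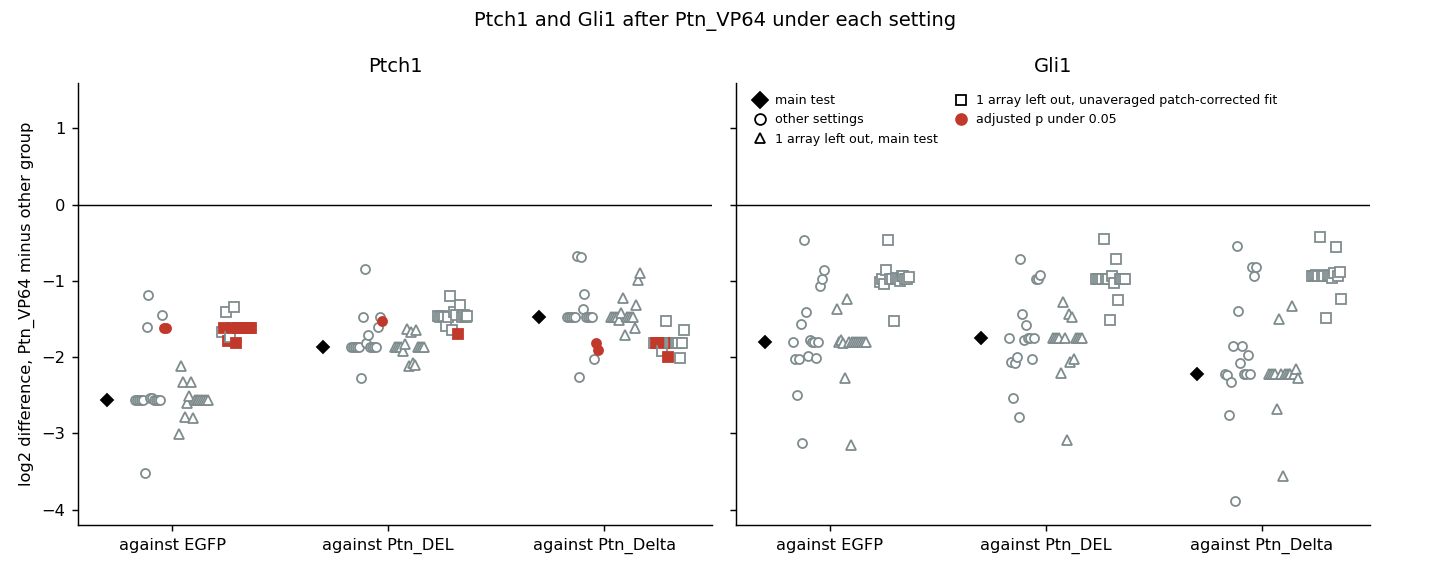
The log2 difference of Ptn_VP64 from each other group for Ptch1 and Gli1, with 1 point per way of processing the data and red where the adjusted p was under 0.05. All points lie below 0, from -3.52 to -0.68 for Ptch1 and from -3.89 to -0.43 for Gli1, and the red points occur for Ptch1, in fits on patch-corrected levels that take every array as a sample.

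The other genes of the pathway were taken from 4 lists. The main test called 0 of them in every comparison. Of 9 genes for ligands and their release, 3 could be tested, Hhat, Disp1 and Scube3, while the ligand genes Shh, Ihh and Dhh were well above background on fewer than 4 arrays. HHAT attaches the lipid that a ligand needs, DISP1 releases ligands from the cell, and SCUBE3 belongs to the secreted proteins that carry them. Their median difference of Ptn_VP64 from EGFP was -0.40 in the main test and 0.03 in the second, where the median of all genes was 0.07 and 0.02. Scube3 was -1.58 ± 0.68 in the main limma test (adjusted p = 1), with no Ptn_VP64 spot and 2 of the 4 EGFP spots well above background. On patch-corrected levels it was -0.32 ± 0.49 (adjusted p = 0.81). Hhat and Disp1 differed from EGFP by -0.40 and -0.15 in the main test.

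Of the 5 receptors and co-receptors reported here, 4 were tested. The median difference from EGFP was 2.04 in Ptn_VP64, 1.48 in Ptn_DEL and 1.61 in Ptn_Delta, where the median of all genes was 0.07, 0.18 and 0.18. In the second test, with 3 genes, these medians were 0.61, 0.61 and 0.63, where those of all genes were 0.02, 0.05 and 0.04. At an unadjusted p under 0.05 the main test held 2 of the 4 as higher in Ptn_VP64 (3.12% of all genes), 2 in Ptn_DEL (2.5%) and 1 in Ptn_Delta (3.77%), all of them Lrp2 or Cdon. Lrp2, a large endocytic receptor that binds Hedgehog ligands, read -0.01, 1.05, 0.36 and 0.91 in EGFP and 2.72, 1.64 (marked), 3.38 and 2.74 (marked) in Ptn_VP64. It read 2.44, 2.47, 1.80 and 2.99 in Ptn_DEL and 1.66 (marked), 2.41, 2.17 and 3.13 in Ptn_Delta. All 12 arrays of the 3 TALE groups were above the 4 EGFP arrays, marked spots included. The share of all genes with such a separation was not computed.

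The Lrp2 difference from EGFP in the main limma test was 2.47 ± 0.76 in Ptn_VP64 (adjusted p = 1), 1.85 ± 0.62 in Ptn_DEL (adjusted p = 1) and 1.90 ± 0.62 in Ptn_Delta (adjusted p = 0.98). The second test called it higher in Ptn_VP64, at 2.33 ± 0.36 (adjusted p = 0.0105; 2.43% of all genes were called higher). That call rests on the Ptn_VP64 arrays kept, replicates 1 and 3 at 3.16 and 3.31, and on EGFP replicates 1, 2 and 4, at 0.38, 0.68 and 1.51. The second test did not call Lrp2 in Ptn_DEL, at 1.26 ± 0.30 (adjusted p = 0.268), or in Ptn_Delta, at 1.45 ± 0.33 (adjusted p = 0.224). The 3 comparisons share the EGFP arrays. Cdon, a co-receptor that binds ligands together with PTCH1, was 2.28 ± 0.86, 2.55 ± 0.86 and 1.75 ± 0.86 above EGFP in Ptn_VP64, Ptn_DEL and Ptn_Delta in the main limma test (adjusted p of 1, 1 and 0.98). On patch-corrected levels the same Cdon differences were 0.61, 0.61 and 0.63, each ± 0.37. Gas1, another co-receptor, was 1.17, 1.1 and 1.48 above EGFP in the main test (each ± 0.68) and 0.23, 0.20 and 0.04 on patch-corrected levels.

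Of the 25 cytoplasmic and ciliary regulators reported here, 24 were tested, 12 higher and 12 lower in Ptn_VP64 than in EGFP, with a median difference of 0.01 (0.07 over all genes). In the second test 11 of 20 were higher and 9 lower, with a median of 0.07 (0.02 over all genes). By limma 0 of the 20 were called, while at an unadjusted p under 0.05 it held 2 as higher (10.1% of all genes) and 2 as lower (6.31%).

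Kif3a, a motor subunit needed to build cilia, was 1.87 ± 0.97, 2.21 ± 0.75 and 2.17 ± 0.75 above EGFP in Ptn_VP64, Ptn_DEL and Ptn_Delta in the main limma test (adjusted p of 1, 1 and 0.98). On patch-corrected levels the Kif3a differences were 1.04 ± 0.36, 1.00 ± 0.31 and 1.14 ± 0.29 (limma, adjusted p of 0.183, 0.434 and 0.277). Prkacb, a catalytic subunit of the kinase that primes GLI proteins for processing, was 1.17, 2.06 and 1.54 above EGFP in the main test (each ± 0.80) and 0.30, 0.69 and 0.66 on patch-corrected levels. Evc, a protein at the base of the cilium that acts with SMO, was 0.64 ± 0.87, 0.13 ± 0.78 and 2.06 ± 0.87 above EGFP in Ptn_VP64, Ptn_DEL and Ptn_Delta in the main limma test (adjusted p of 1, 1 and 0.98). On patch-corrected levels the Evc differences were -0.35 ± 0.37, -0.38 ± 0.41 and -0.03 ± 0.37.

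Of the 23 genes often used as Hedgehog targets and reported here, 13 were tested, 6 higher and 7 lower in Ptn_VP64 than in EGFP, with a median difference of -0.01 (0.07 over all genes). In the second test 6 of 10 were higher and 4 lower, with a median of 0.05 (0.02 over all genes), and 1 was called higher. This was Nr2f2, a nuclear receptor of mesenchyme and endothelium. Nr2f2 read -3.37, -3.06, -3.67 and -4.51 in EGFP, none well above background, and -0.05, -0.98, 0.16 and -1.53 in Ptn_VP64, all well above background. It was well above background on no array of Ptn_DEL (-4.33 to -3.68) or Ptn_Delta (-4.96 to -2.95). It was at least 3.2-fold higher in Ptn_VP64 than in EGFP, 4.7-fold than in Ptn_DEL and 5.95-fold than in Ptn_Delta. The main limma test gave 3.05 ± 0.63 from EGFP (adjusted p = 0.679). The second test called Nr2f2 against each group, at 2.83 ± 0.49 from EGFP (adjusted p = 0.00805), 3.78 ± 0.49 from Ptn_DEL (adjusted p = 0.00337) and 3.72 ± 0.49 from Ptn_Delta (adjusted p = 0.00522), with 2.43%, 0.564% and 0.474% of all genes called higher.

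Ccnd2, the cyclin D2 gene, read 0.57, 0.64 (marked), -4.44 (at the floor) and -0.38 (marked) in Ptn_VP64, below all 12 arrays of the other groups, which ranged from 1.61 to 3.53. The share of all genes separated in this way was not computed. The Ccnd2 difference from EGFP was -4.67 ± 1.24 (limma, adjusted p = 0.912) over 2 Ptn_VP64 arrays, of which the one at the floor sets much of the size. Ccnd2 was not in the patch-corrected test. Cdk6, a kinase that pairs with D cyclins, was well above background on no EGFP array, so its differences from EGFP have no measured size. With marked spots counted, the bound on uncorrected levels was 1.11-fold higher in Ptn_VP64 and 1.05-fold higher in Ptn_Delta, and for Ptn_DEL it gave no fold. Over the spots used the Cdk6 means were -2.35 in Ptn_VP64 and -2.16 in Ptn_Delta. Both lie below the EGFP bound of -2.11, so that no fold was left in any group.

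**Figure D5:**
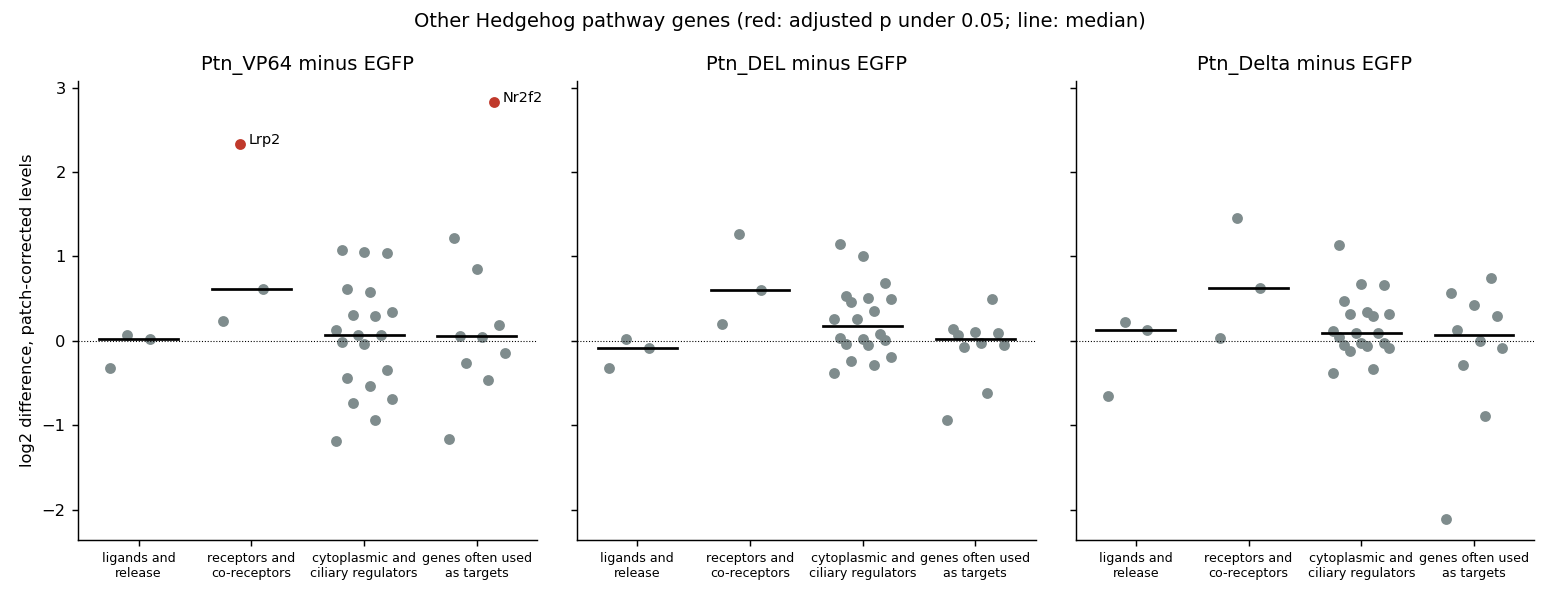
The patch-corrected log2 difference from EGFP of each tested gene reported here of the 4 other Hedgehog lists, with a line at the list's median and red where the adjusted p of the unaveraged fit was under 0.05. In Ptn_VP64 the red points are Lrp2 at 2.33 and Nr2f2 at 2.83, the list medians lie between 0.03 and 0.61, and no point is red in Ptn_DEL or Ptn_Delta.

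The genes whose level followed that of Ptch1 most closely over the arrays were found among 11140 genes by Pearson's r, as a description. They were Pecam1 (r = 0.944 over 16 arrays), Fgf17 (0.889 over 15), Cilp2 (0.854 over 15), Asprv1 (0.846 over 14) and Gm1604b (0.839 over 16). Among the members Gli1 had 0.555 over 13 arrays, at rank 607, Hhip 0.335 over 13, Gli2 0.245 over 12 and Smo -0.318 over 15. On patch-corrected levels, among 3810 genes, the closest were Flywch2 (0.971 over 13 arrays), Klhl10 (0.953 over 12), Zfyve28 (0.948 over 12), 1700001P01Rik (0.942 over 12) and Eef2k (0.936 over 13). No gene was among the 5 closest on both sets of levels. All these points share the arrays, their brightness and their patches.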

How the data were processed

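The authors deposited 1 Agilent Feature Extraction 11.5.1.1 table per array and a table of values for the series. Per the file headers, the processed signal is an intensity, background subtracted and detrended, and not normalized between arrays, on a design annotated on mm9. The deposited series values are log2 and share the same quantiles in all arrays; they served as an alternative. All 16 arrays were used, in 4 groups of 4.

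Spots marked by the software as non-uniform or outlying were dropped, repeated spots were averaged, and a probe was kept if at least 4 arrays had it well above background. A gene was read from its brightest kept probe. Probes were named through RefSeq accessions (GRCm38.p6 gene table), 27656 with 1 symbol and 28025 with none. Tests used limma 3.58.1 in R 4.3.3 (lmFit and eBayes, 2-sided, Benjamini-Hochberg over all genes, threshold 0.05), with the slide as a term in the pairing it does not cancel in and in unaveraged fits. The patch correction took the median shift over 21 by 21 spots, over the 17906 spots whose median log2 level reached -1, and needed 2 arrays a group. The fits were tested on simulated levels whose noise was independent for each array, without technical repeats, a floor or patches. That simulation gives no error rate for the arrays used here. The number of arrays limits the precision.

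The members and lists were chosen with earlier results of these data known. Named were the members, Ptn, up to 3 genes per Hedgehog list with the smallest main p in any comparison with EGFP, every list gene called, the 5 genes most like Ptch1 and up to 3 markers a list, those well above background on most arrays; Shh, Ihh, Dhh and the markers at no array were added after their values were seen. Some genes of these lists are not reported here and enter no list count, median or sum. Promoters matched 6 of 7 members. Replicate numbers were not taken as pairs.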

Additional observations from a re-analysis of the deposited data

How the results depend on the processing

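The number of Hedgehog members called was 0 in the main test. For Ptn_VP64 against EGFP it was 1 (Ptch1) on patch-corrected levels with every array as a sample, from 0 to 1 as each array was left out of that fit (1 in 13 of 16, Ptch1 in 12 and Gli3 in the fit without EGFP replicate 3), and 0 in all 16 such fits of the main test. For Ptn_VP64 against Ptn_Delta it was likewise 1, and 0 to 1 (1 in 6 of 16). For Ptn_VP64 against Ptn_DEL it was 0, and 0 to 1 (1 of 16, without Ptn_DEL replicate 3). It was 0 in the 47 alternatives of each of the other 3 comparisons. The sign of the 3 Ptn_VP64 differences was the same in all 49 alternatives for Ptch1 and Gli1 and in all 48 for Gli2. Most of these alternatives left out 1 of the same 16 arrays, and all re-used those arrays, so they are not independent of one another. The adjusted p of Ptch1 ranged from 0.0217 to 1 against EGFP, 0.0482 to 1 against Ptn_DEL and 0.0325 to 1 against Ptn_Delta. Over all 6 comparisons 261 of 1638 member values had the other sign, none of them a called value. The cause was not tested.

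Each replicate number was 1 slide and 1 slide row, shared by the 4 groups. Deviations of same-numbered arrays of different groups from their group means correlated above 0.1 in 13 of 24 pairs (19 of 24 after patch correction), and those of different-numbered arrays in 10 of 72 (12 of 72); medians were 0.15 against -0.07, and 0.23 against -0.11 after correction. Deviations from a group mean cancel within the group, so the different-numbered values are no independent reference for the same-numbered ones. The mean correlation was highest with an array's own number for 10 of 16 arrays (13 of 16), a hint from the data of a shared block. The numbers were not taken as pairs, since the labels tie no number to a shared culture or day. The main test held no term for the slide row, and these correlations cannot decide whether one was needed. With the replicate number as a block, in the fit on patch-corrected levels with every array as a sample, 1 member (Ptch1) was called against EGFP, Ptn_DEL and Ptn_Delta, with adjusted p of 0.0227, 0.0482 and 0.0325; the call against Ptn_DEL was not made without the block. The fits of 1 slide gave no test. Brightness limits Sufu, Hhip and Ptch1 most, since their spots are near background.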
